A study of Mus musculus with 6 samples.

Results

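The proteasome genes are the mouse genes whose symbols run from Psma to Psmg followed by a number, the family that encodes the subunits, activators and assembly factors of the proteasome. The members were taken by symbol alone, but this choice was made with earlier results of these data known and was not blind to them. Of the 53733 named rows of counts, 49 matched, and 48 of these were among the 13652 rows that passed the filter on low counts. They were measured in an acute myeloid leukaemia line made from murine foetal liver cells by transduction with a constitutively expressed MSCV-Luc2-IRES-MLL-AF9 vector and an inducible TRE-tight-DsRED-IRES-FLT3-ITD vector. MLL-AF9 is a fusion oncogene, and FLT3-ITD is a constantly active receptor tyrosine kinase, which this vector expresses while doxycycline is present. In the OFF group, 3 mice of the immunodeficient NSG strain were given the cells by tail vein, kept on doxycycline for 96 h of engraftment and then put on regular chow and water for 48 h. In the ON group, 3 mice were treated in the same way but stayed on doxycycline for those 48 h. Both groups therefore carried MLL-AF9 throughout, and a loss of FLT3-ITD expression cannot be told apart from a loss of doxycycline itself. A single line was used in all 6 mice, so the spread between mice does not cover differences between leukaemias, and the labels read here state no age for the mice. Viable leukaemic cells came from a sort of bone marrow, and their mRNA was sequenced from the 3' end with the Lexogen QuantSeq kit, 1 library per mouse.

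The proteasome is the protease that degrades most ubiquitin-tagged proteins of a cell. Its barrel-shaped core has outer rings of alpha subunits, which gate the entry, and inner rings of beta subunits, of which the ones encoded by Psmb5, Psmb6 and Psmb7 cut peptide bonds. A regulatory particle caps the barrel: its base of ATPases (Psmc genes) unfolds the substrate, and its lid (most Psmd genes) removes the ubiquitin chain. In cells of blood origin or under interferon, Psmb8, Psmb9 and Psmb10 can replace the catalytic subunits Psmb5, Psmb6 and Psmb7 in newly built cores, which are then called immunoproteasomes and are known for making peptides for MHC class I. The transcription factor NRF1 (gene Nfe2l1) is the known activator of the subunit genes when proteasome activity is short.

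The promoters of the catalytic subunit gene Psmb5, of the 3 immunoproteasome genes and of Psmd10, the only member called higher in OFF, are shown as examples of the sequence features counted further on. Each is the window of 250 bases before to 50 bases after the start that RefSeq gives, read 5' to 3' on the gene's own strand. The build is GRCm38.p6. For Psmb8 and Psmb9 the window lies wholly within the gene's GENCODE span (chromosome 17, 34197721 to 34201454 and 34181987 to 34187764). These 2 windows therefore do not cover the sequence before the GENCODE start, and positions are counted from the RefSeq start. Psmb5 lies at chr14:54617946-54618245 (minus strand), Psmb8 at chr17:34197945-34198244 (plus), Psmb9 at chr17:34187281-34187580 (minus), Psmb10 at chr8:105938343-105938642 (minus) and Psmd10 at chrX:140956662-140956961 (minus). Psmb9 was added after its values were seen. Capitals mark matches on either strand to TGANNNNGC, the core of the antioxidant response element that NRF1 binds with small MAF proteins, to the CCAAT box, bound by NF-Y and read as ATTGG on the other strand, or to the E-box CACGTG, bound by MYC.
Psmb5: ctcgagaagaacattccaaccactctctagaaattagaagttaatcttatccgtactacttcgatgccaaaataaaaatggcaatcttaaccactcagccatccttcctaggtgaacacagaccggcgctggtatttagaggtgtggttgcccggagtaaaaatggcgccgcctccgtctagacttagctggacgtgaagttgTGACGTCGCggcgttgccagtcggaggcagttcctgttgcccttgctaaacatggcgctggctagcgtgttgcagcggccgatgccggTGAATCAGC
Psmb8: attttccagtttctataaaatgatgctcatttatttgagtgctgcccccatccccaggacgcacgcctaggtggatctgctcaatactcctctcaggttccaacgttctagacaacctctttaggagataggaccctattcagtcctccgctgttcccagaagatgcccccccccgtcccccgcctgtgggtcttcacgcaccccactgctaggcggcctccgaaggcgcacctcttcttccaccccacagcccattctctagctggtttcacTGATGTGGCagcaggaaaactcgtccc
Psmb9: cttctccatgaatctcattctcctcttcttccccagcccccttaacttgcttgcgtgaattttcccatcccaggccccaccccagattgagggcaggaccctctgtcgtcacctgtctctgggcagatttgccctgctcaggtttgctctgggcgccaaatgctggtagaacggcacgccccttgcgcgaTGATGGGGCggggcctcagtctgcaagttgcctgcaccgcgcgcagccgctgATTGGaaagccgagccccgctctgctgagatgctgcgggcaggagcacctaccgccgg
Psmb10: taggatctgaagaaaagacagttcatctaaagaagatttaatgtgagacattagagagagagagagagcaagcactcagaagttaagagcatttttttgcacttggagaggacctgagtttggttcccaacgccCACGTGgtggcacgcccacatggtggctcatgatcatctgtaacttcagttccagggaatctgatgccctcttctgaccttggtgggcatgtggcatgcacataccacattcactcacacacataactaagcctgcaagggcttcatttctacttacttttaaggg
Psmd10: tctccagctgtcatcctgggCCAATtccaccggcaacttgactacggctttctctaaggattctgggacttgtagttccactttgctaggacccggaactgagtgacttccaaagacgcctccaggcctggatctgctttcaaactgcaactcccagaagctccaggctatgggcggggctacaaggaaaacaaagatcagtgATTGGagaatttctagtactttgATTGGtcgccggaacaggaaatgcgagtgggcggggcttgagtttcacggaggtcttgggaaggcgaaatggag
In these windows, Psmb5 had the TGANNNNGC letters at -47 and 42 from the start, Psmb8 at 24 and Psmb9 at -60, while Psmb10 and Psmd10 had none. Psmb10 had the E-box at -116, Psmb9 had a CCAAT box at -8, and Psmd10 had 3 CCAAT boxes, at -230, -47 and -24. No marked matches overlapped, and none of the 5 windows held TTTC followed by any 2 bases and TTTC again, a pair of sites for interferon regulatory factors.

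The libraries held between 8714499 and 9316361 counts in OFF and between 8335234 and 8795895 in ON, and 1 count was worth at most 0.124 CPM (counts scaled to a common library size after TMM normalisation). Markers of immature myeloid leukaemia were present in every library (summed level 4460 to 4720 CPM in OFF and 2710 to 3080 CPM in ON), including Ptprc, Hoxa9, Meis1 and Mpo, although Kit had at most 5 counts. Mature neutrophil markers summed to 3470, 5490 and 8160 CPM in OFF replicates 1 to 3, against 2350 to 2510 CPM in ON, with 7 of 8 higher in OFF. Of 9 monocyte and macrophage markers 5 were higher and 1 lower in OFF (665 to 906 CPM in OFF, 498 to 570 CPM in ON), with C1qa, C1qb and C1qc at 3 counts or fewer. Erythroid markers summed to 578 to 933 CPM in OFF and 150 to 212 CPM in ON, with 5 of 7 higher, while Slc4a1 and Klf1 stayed at 10 counts or fewer. Lymphoid, megakaryocyte and stromal markers were near 0 apart from Pecam1 and Nkg7. Of the 9 tested markers of immature myeloid leukaemia, 6 were higher and 1 (Ctsg) lower in OFF. For these marker lists, higher and lower mean an adjusted p below 0.05 (edgeR). Among all tested rows, 17.3% were higher and 17.5% lower by that threshold. Endogenous mouse Flt3 had 6.83 ± 2.01 CPM in OFF and 5.67 ± 0.17 CPM in ON (SD, n = 3 each; adjusted p = 0.387, edgeR), and how far this row counts reads of the transgene was not tested. In bulk samples, fewer cells of a type and less RNA per cell cannot be told apart, and the part of these markers in the results on proteasome genes was not tested.

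Most proteasome genes were lower in OFF. Of the 48 tested, 31 fell and 1 rose (Psmd10) at an adjusted p below 0.05 (edgeR quasi-likelihood test, Benjamini-Hochberg over all tested rows), while 16 did not pass. Among all tested rows 17.5% were called lower and 17.3% called higher. The median log2 fold change of the 48 was -0.43, against 0.004 for all tested rows, and 42 of the 48 were below 0. The falls were modest: the 31 had a median fold of 1.38 (1.24 to 2.01), 9 passed 1.5-fold and 1 passed 2-fold. Since well-counted rows are called more often, the same shares were taken over rows averaging at least 10 CPM, where 20.9% were called lower and 19.1% higher; of the 47 proteasome genes at that level, 31 were lower and 1 higher. In 36 genes every OFF value lay below every ON value and in 2 genes above it, where 24.5% and 23.8% of all tested rows did the same. Added together and leaving out Psme2b, the tested genes reached 4100, 3590 and 3680 CPM in OFF and 4930, 4860 and 4930 CPM in ON. Leaving out OFF replicate 2 brought the genes called lower to 20, with 1740 of 14025 rows called lower in that fit. Of the 32 calls, 13 were lost in at least 1 of 14 alternative analyses, most often those of Psme4 and Psmd13 (8 each) and of Psmc3, Psmb4, Psma6 and Psmd10 (6 each).

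**Figure D1:**
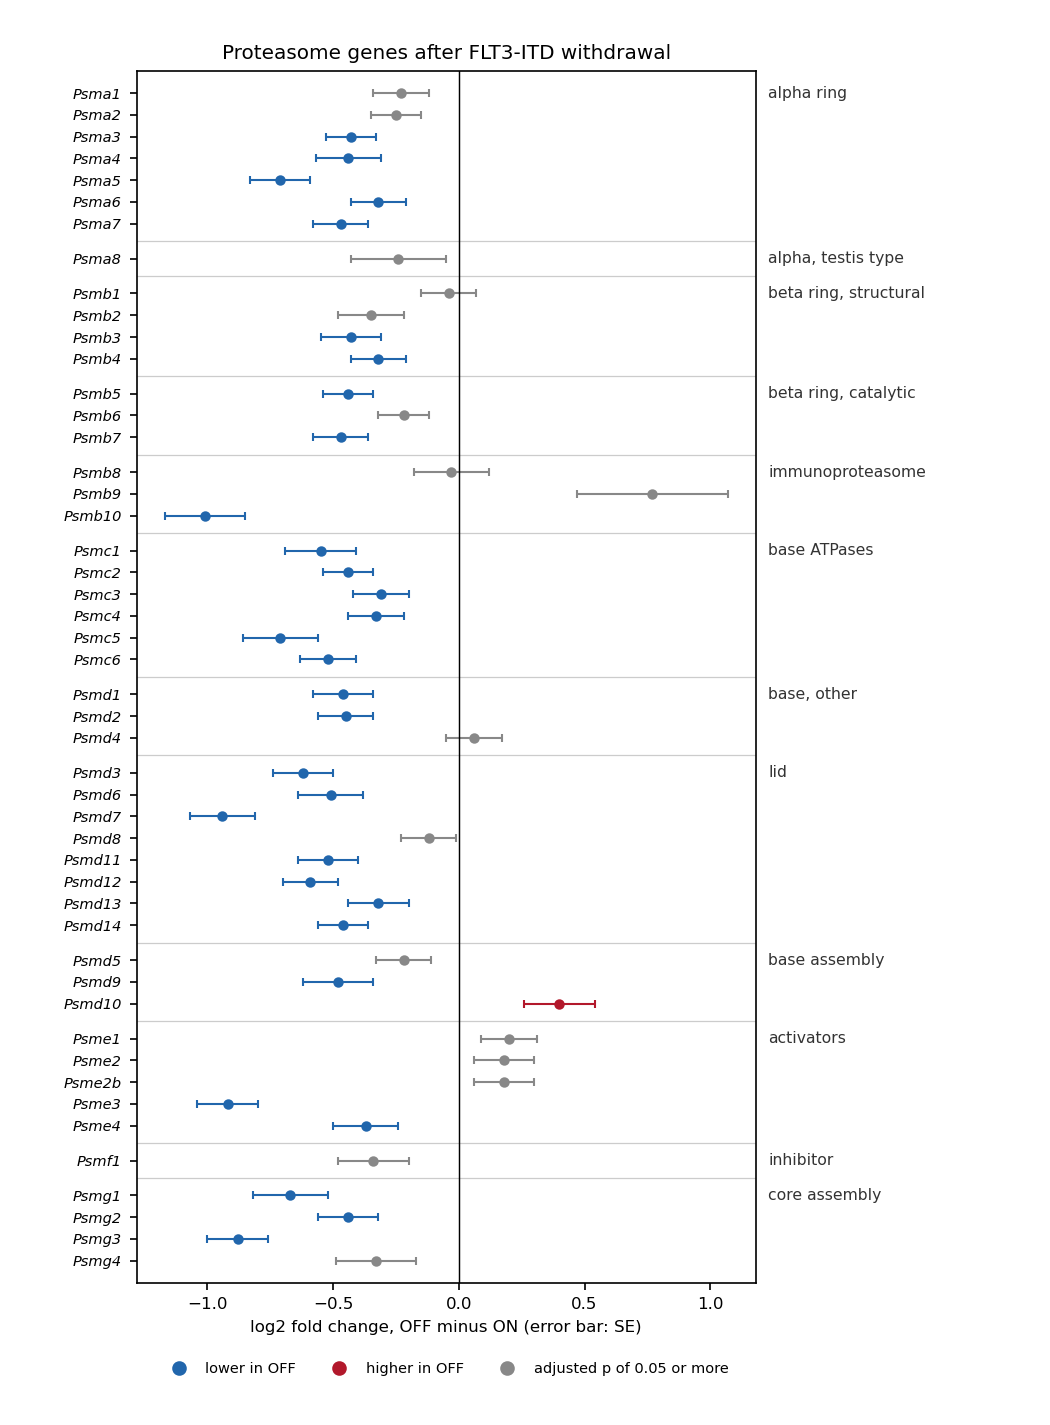
Log2 fold change (OFF minus ON, x axis) of each of the 48 tested proteasome genes (rows, grouped by role), with the edgeR estimate as a point and its SE as a bar. Of the points, 42 lie left of 0, Psmb10 lies furthest left at -1.01, Psmd10 is the only gene called higher and Psmb9 has the widest bar.

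The alpha ring, which gates the core, had all 7 of its general subunits below ON in every OFF mouse. Of these, 5 fell, and the median log2 fold change was -0.43. Among all tested rows 24.5% had every OFF value below every ON value and 17.5% were called lower. The same shares stand beside the counts by role that follow, and no role was tested against them. Psma5 (GRCm38 chromosome 3, 108256926 to 108279974, plus strand) changed most in this ring. It had 31.3, 40.8 and 36.6 CPM in OFF mice and 56.5, 58.0 and 63.5 CPM in ON mice (-0.71 ± 0.12 on the log2 scale, estimate and SE as throughout; adjusted p = 0.000426 by edgeR). Every OFF mouse was well below every ON mouse. At the other end, Psma1 had 122, 105 and 101 CPM in OFF and 130, 128 and 127 CPM in ON, apart but close (-0.23 ± 0.11, adjusted p = 0.108 by edgeR). Psma3, Psma4, Psma6 and Psma7 fell by 0.43, 0.44, 0.32 and 0.47 on the log2 scale, and Psma2 was at -0.25 (adjusted p = 0.065, edgeR). Psma8, whose product takes the place of Psma7 in testis, was counted at 6.83 CPM in OFF and 8.07 CPM in ON, with overlapping groups.

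The structural beta subunits, which complete the inner rings without cutting peptides, moved less evenly: 2 of 4 fell, and the median was -0.33. Psmb3 had 120, 90.9 and 122 CPM in OFF and 151, 155 and 142 CPM in ON (-0.43 ± 0.12, adjusted p = 0.0141 by edgeR), and Psmb4 fell by 0.32 on the log2 scale. Psmb2 had 19.3, 20.4 and 24.5 CPM in OFF and 28.1, 27.9 and 25.7 CPM in ON, just short of the threshold (adjusted p = 0.051, edgeR). Psmb1 had 137, 133 and 170 CPM in OFF and 154, 149 and 150 CPM in ON. OFF replicate 3 was the highest of all 6 and the other OFF mice the lowest, so that the groups overlapped (-0.04 ± 0.11, adjusted p = 0.813 by edgeR).

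All 3 constitutive catalytic subunits were below ON in every OFF mouse, and 2 fell. Psmb5 (chymotrypsin-like activity, the main target of the drug bortezomib; GRCm38 chromosome 14, 54614119 to 54618022, minus strand) had 123, 110 and 120 CPM in OFF and 163, 157 and 159 CPM in ON. Its log2 fold change was -0.44 ± 0.10 (adjusted p = 0.00377 by edgeR), and its OFF and ON values were far apart relative to the spread within groups. Psmb7 (trypsin-like activity) had 69.4, 58.3 and 57.8 CPM in OFF and 88.4, 80.2 and 87.5 CPM in ON (-0.47 ± 0.11, adjusted p = 0.00509 by edgeR). The Psmb7 row is uncertain, because 405 exonic bases at the 3' end of Psmb7 are shared with Nek6 on the opposite strand. Whether the counting used strand was not stated. Nek6 counts were 0.872 to 0.966 of those of Psmb7 in the 6 libraries, and Nek6 was at -0.49. Psmb6 (caspase-like activity) had 58.9, 59.1 and 55.0 CPM in OFF and 65.6, 71.2 and 65.2 CPM in ON, which did not pass (-0.22 ± 0.10, adjusted p = 0.114 by edgeR).

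Of the 3 immunoproteasome subunits 1 fell, and their log2 fold changes spread from -1.01 to 0.77. Psmb10, the counterpart of Psmb7 (GRCm38 chromosome 8, 105935735 to 105938444, minus strand), had the largest fall of any proteasome gene. It had 13.8, 9.58 and 10.8 CPM in OFF and 23.6, 19.5 and 25.6 CPM in ON, with no OFF mouse within the ON range (-1.01 ± 0.16, adjusted p = 0.000293 by edgeR). Psmb8, the counterpart of Psmb5 (GRCm38 chromosome 17, 34197721 to 34201454, plus strand), had 14.1, 16.1 and 17.9 CPM in OFF and 14.2, 17.1 and 18 CPM in ON. The Psmb8 groups nearly coincided (-0.03 ± 0.15, adjusted p = 0.902 by edgeR). Psmb9, the counterpart of Psmb6 (GRCm38 chromosome 17, 34181987 to 34187764, minus strand), had 12.7, 23.5 and 33.1 CPM in OFF and 12.3, 14.9 and 13.4 CPM in ON. OFF replicate 1 sat within the ON range and OFF replicates 2 and 3 well above it, in the same order as the summed neutrophil markers given above, whose part was not tested, and the estimate did not pass (0.77 ± 0.30, adjusted p = 0.0732 by edgeR). The Psmb9 call depended on the analysis: it passed, upward, in 5 of 14 alternatives, among them DESeq2 (adjusted p = 0.014), every counted row kept (0.000114), a filter at 10 CPM (0.0319) and OFF replicate 1 left out (2.21e-05, log2 fold change 1.06). Over all 14 alternative analyses its adjusted p ran from 2.21e-05 to 0.198.

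**Figure D2:**
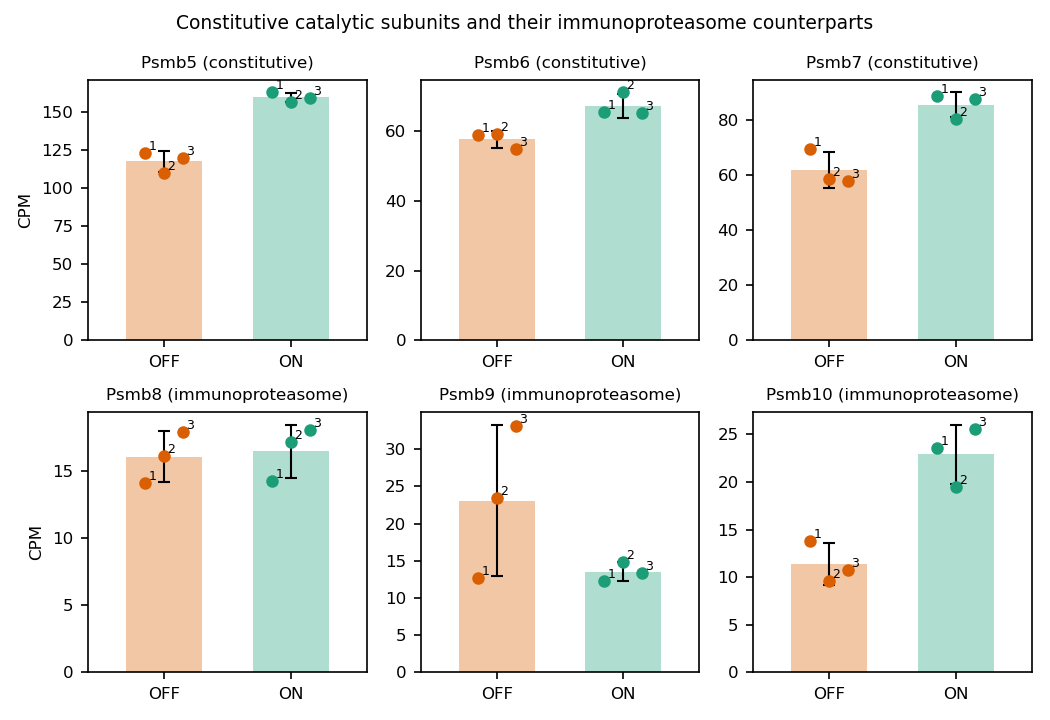
CPM (y axis, starting at 0) of the 3 constitutive catalytic subunits (top) and the immunoproteasome subunit that replaces each (bottom) in OFF and ON mice; bars are means, error bars SDs of 3 mice, and numbered points single mice. OFF points lie below ON points for Psmb5, Psmb6, Psmb7 and Psmb10, coincide with them for Psmb8, and spread from 12.7 to 33.1 CPM for Psmb9.

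Within a library, each immunoproteasome gene was set against the subunit it replaces, as the log2 ratio of their CPM values with a prior count of 2. The level of such a ratio depends on how well each 3' end is captured, so it is compared only between groups. Psmb8 over Psmb5 was -3.11, -2.75 and -2.72 in OFF and -3.50, -3.18 and -3.13 in ON, a difference of 0.41. Psmb9 over Psmb6 was -2.20, -1.32 and -0.73 in OFF and -2.39, -2.24 and -2.26 in ON, a difference of 0.88 that ran from 0.54 to 1.27 when single mice were left out. Psmb10 over Psmb7 was -2.31, -2.58 and -2.40 in OFF and -1.89, -2.03 and -1.77 in ON, a difference of -0.53. The first and second ratios were thus higher, and the last lower, in every OFF mouse than in every ON mouse, although the uncertainty of the Psmb7 row holds for its ratio too. The gap was narrow for Psmb8 over Psmb5, at -3.11 in OFF replicate 1 and -3.13 in ON replicate 3, and on the authors' deposited log2 table its exact permutation p was 0.2. Each of the 3 exact two-sided permutation tests gave p = 0.1, also after adjustment over the 3 pairs, which is the smallest p that 3 against 3 mice allow.

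**Figure D3:**
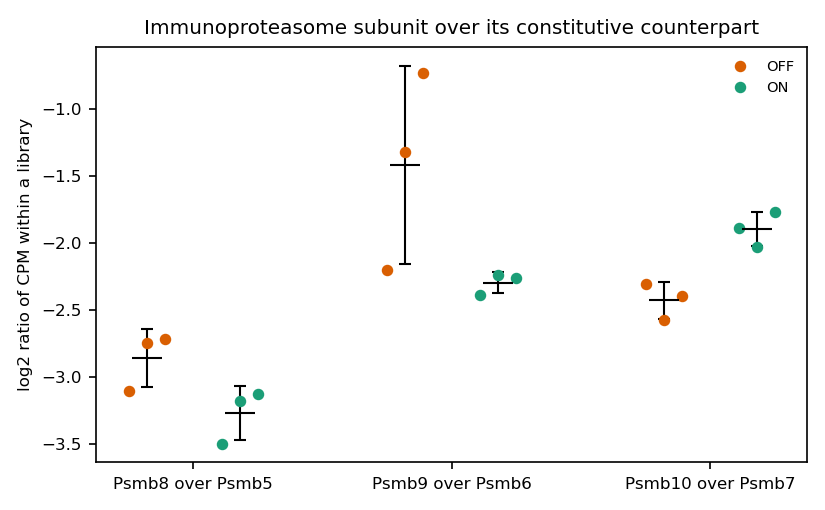
Log2 ratio of CPM within each library (y axis) for the 3 immunoproteasome genes over their constitutive counterparts; points are mice, OFF left of ON, with mean and SD of 3 mice. OFF lies higher for Psmb8 over Psmb5 and Psmb9 over Psmb6 and lower for Psmb10 over Psmb7, with OFF replicate 1 of the middle pair at -2.20, next to the ON points.

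In the regulatory particle, all 6 base ATPases fell, with a median of -0.48, and each had every OFF mouse below every ON mouse. Psmc5 had 20.8, 17.6 and 13.9 CPM in OFF and 29.9, 27.6 and 27.7 CPM in ON (-0.71 ± 0.15, adjusted p = 0.00188 by edgeR). Psmc3, the smallest fall of the ring, had 173, 145 and 141 CPM in OFF and 187, 191 and 191 CPM in ON (-0.31 ± 0.11, adjusted p = 0.0359 by edgeR). OFF replicate 1 of Psmc3 came close to the ON mice, and its call was lost in 6 of 14 alternative analyses. Near its 3' end Psmc3 shares 215 exonic bases with Slc39a13 on the opposite strand, a gene counted at 5.5 CPM in OFF and 6.13 CPM in ON. The other 4 ATPases, Psmc1, Psmc2, Psmc4 and Psmc6, fell by 0.55, 0.44, 0.33 and 0.52 on the log2 scale. Of the non-ATPase base subunits, the scaffolds Psmd1 and Psmd2 fell. Psmd2 had 129, 109 and 115 CPM in OFF and 156, 167 and 160 CPM in ON (-0.45 ± 0.11, adjusted p = 0.00419 by edgeR). The ubiquitin receptor Psmd4 had 277, 228 and 252 CPM in OFF and 258, 232 and 238 CPM in ON, groups that overlapped fully (0.06 ± 0.11, adjusted p = 0.716 by edgeR).

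The lid had 7 of 8 members called lower, with a median of -0.51. Psmd7, which pairs with the deubiquitinase Psmd14 (GRCm38 chromosome 8, 107580381 to 107588464, minus strand), was furthest apart. It had 97.5, 79.0 and 67.8 CPM in OFF and 156, 153 and 158 CPM in ON (-0.94 ± 0.13, adjusted p = 6.51e-05 by edgeR). The ON mice nearly coincided, while even the highest OFF mouse was far below them. Psmd14 itself, the enzyme that cuts the ubiquitin chain off the substrate, had 74.0, 76.0 and 72.1 CPM in OFF and 103, 102 and 100 CPM in ON (-0.46 ± 0.10, adjusted p = 0.00258 by edgeR). Psmd3, Psmd6, Psmd11, Psmd12 and Psmd13 fell by 0.62, 0.51, 0.52, 0.59 and 0.32 on the log2 scale. Psmd8 did not pass: it had 95.7, 93.8 and 113 CPM in OFF and 111, 115 and 102 CPM in ON (-0.12 ± 0.11, adjusted p = 0.43 by edgeR). OFF replicate 3 lay within the ON range and the other OFF mice below it.

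Assembly factors, which build the complex and then leave it, included both large falls and the single rise. Of the core chaperones, which form the alpha ring, 3 of 4 fell, with a median of -0.56. Psmg3 (GRCm38 chromosome 5, 139823592 to 139826885, minus strand) had 26.4, 22.5 and 26.5 CPM in OFF and 47.1, 44.8 and 47.0 CPM in ON (-0.88 ± 0.12, adjusted p = 5.31e-05 by edgeR). Both groups were tight and far apart. Psmg1 had 10.6, 13.4 and 13.3 CPM in OFF and 21.8, 18.1 and 19.5 CPM in ON (-0.67 ± 0.15, adjusted p = 0.00272 by edgeR). Psmg2, its partner, had 23.4, 19.4 and 23.1 CPM in OFF and 29.3, 30.5 and 29.5 CPM in ON (-0.44 ± 0.12, adjusted p = 0.0125 by edgeR). Neither gene had an OFF mouse within the ON range. Psmg4, the partner of Psmg3, had 11.7, 11.2 and 9.35 CPM in OFF and 15.1, 14.1 and 11.3 CPM in ON, where ON replicate 3 lay within the OFF range (-0.33 ± 0.16, adjusted p = 0.135 by edgeR).

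The 3 chaperones of the base differed from each other. Psmd10 (gankyrin, which binds the ATPase Psmc4; GRCm38 chromosome X, 140948429 to 140956728, minus strand) had 27.0, 20.9 and 26.7 CPM in OFF and 19.2, 17 and 20.3 CPM in ON. It rose (0.40 ± 0.14, adjusted p = 0.0368 by edgeR), but OFF replicate 2 lay just above the highest ON mouse. The Psmd10 call was lost with DESeq2 (adjusted p = 0.0722) and when OFF replicate 1 or 3 or any ON mouse was left out, with adjusted p from 0.0213 to 0.166 over the 14 alternative analyses. Psmd9 fell, with 13.7, 11.1 and 14.5 CPM in OFF and 17.8, 18.5 and 18.7 CPM in ON (-0.48 ± 0.14, adjusted p = 0.0171 by edgeR). Psmd5 had 31.9, 30.6 and 33.1 CPM in OFF and 34.4, 38.5 and 38.6 CPM in ON, separate but not called (-0.22 ± 0.11, adjusted p = 0.147 by edgeR).

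The activators, which open the core without the regulatory particle, split by complex. Psme3, which forms the nuclear activator (GRCm38 chromosome 11, 101316213 to 101323537, plus strand), had 42.2, 33.0 and 36.0 CPM in OFF and 64.0, 74.7 and 71.7 CPM in ON (-0.92 ± 0.12, adjusted p = 5.22e-05 by edgeR). Psme4, a large monomeric activator, had 84.5, 65.3 and 58.7 CPM in OFF and 83.8, 91.0 and 94.5 CPM in ON (-0.37 ± 0.13, adjusted p = 0.0405 by edgeR). It was the only called gene of the 32 whose groups overlapped, through OFF replicate 1, and its call was lost in 8 of 14 alternative analyses. Psme1 and Psme2 form the interferon-inducible activator that works with immunoproteasomes. Psme1 had 62.6, 70.6 and 62.8 CPM in OFF and 56.6, 52.7 and 61.6 CPM in ON, all OFF mice above all ON mice but not called (0.20 ± 0.11, adjusted p = 0.185 by edgeR). Psme2 had 59.2, 63.7 and 78.3 CPM in OFF and 58.5, 59.2 and 59.9 CPM in ON, with OFF replicate 1 inside the ON range (0.18 ± 0.12, adjusted p = 0.263 by edgeR). The row Psme2b, a near-identical copy, held 0.927 to 0.962 counts for each count of Psme2 in every library and cannot be taken as a separate measurement. Psmf1, which inhibits the core, had 14.5, 13.5 and 16.6 CPM in OFF and 19.8, 17.5 and 19.1 CPM in ON, separate but not called (-0.34 ± 0.14, adjusted p = 0.0739 by edgeR). Psmb11, the catalytic subunit of the thymus, did not pass the filter, with 7, 2 and 3 raw counts in OFF and 3, 3 and 6 in ON.

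Put by complex, the 14 constitutive core subunits had 9 called lower and a median of -0.39, and the 17 subunits of base and lid had 15 called lower and a median of -0.46. Among the 7 assembly factors 4 fell and 1 rose (median -0.44), and among the 5 activator rows 2 fell (median 0.18, or -0.09 with the Psme2b copy left out). The difference between these groups of genes was not tested. Mice within OFF were not alike. The median gene stood at -0.27, -0.48 and -0.42 (log2) from its ON mean in OFF replicates 1 to 3. Of the 31 genes called lower, OFF replicate 1 was the highest OFF mouse in 21 and the lowest in 2. Psma5 and Psmg1 were those 2, so the genes did not share 1 order across the OFF mice. OFF replicate 1 also had the lowest neutrophil marker sum of the OFF mice and OFF replicate 3 the highest. Without OFF replicate 3, 32 genes were called lower, and without OFF replicate 1 also 32. In those 2 fits, 2687 of 13957 and 2740 of 13995 rows were called lower, against 2390 of 13652 with all mice. The part of these cells in the result was not tested.

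**Figure D4:**
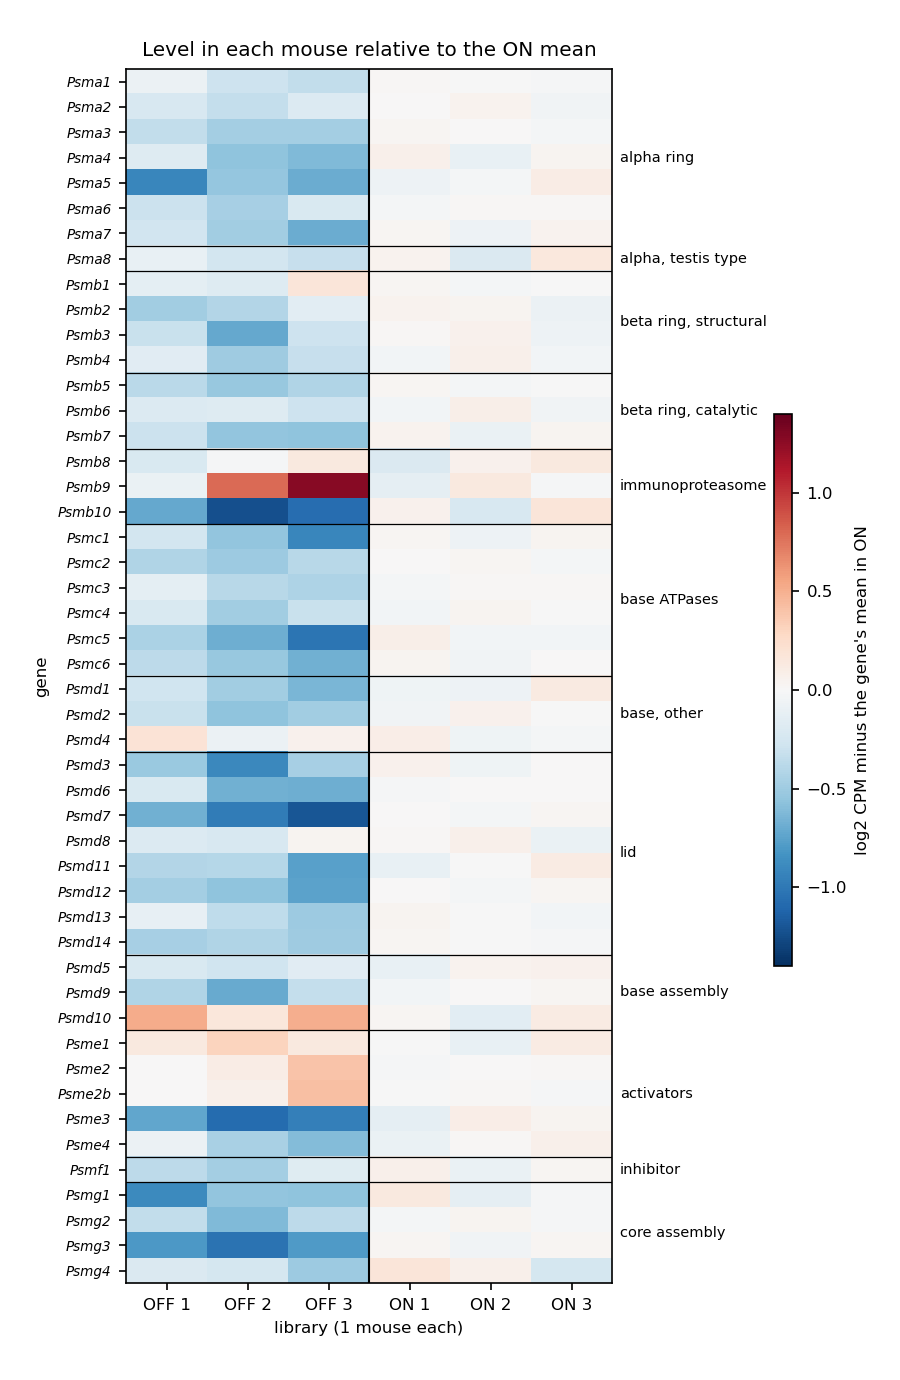
Log2 CPM of each tested proteasome gene (rows, by role) in each mouse (columns, OFF left of ON) minus the gene's mean in ON; blue is below that mean and red above it. OFF columns are mostly blue, with 44, 43 and 39 of 48 genes below the ON mean, and red cells stand out for Psmb9 in OFF replicates 2 and 3 and for Psmd10.

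Of the 11 tested proteasome genes without a Psm symbol 4 fell and 1 rose, with a median of -0.24, where 17.5% of all tested rows were called lower and 17.3% higher. The same shares apply to the 3 lists that follow, and no list was tested against them. The ubiquitin receptor Adrm1 fell by 0.55 on the log2 scale, the deubiquitinases Uchl5 and Usp14 by 0.54 and 0.69, and the thioredoxin-like Txnl1 by 0.50. Usp14 had 80.2, 69.1 and 61.2 CPM in OFF and 111, 114 and 113 CPM in ON (adjusted p = 0.000393, edgeR). Uchl5 had 87.4, 72.4 and 52.6 CPM in OFF and 102, 102 and 105 CPM in ON. In both, the OFF mice spread more widely than the ON mice and lay below them. Adrm1 had 47.8, 40.2 and 49.1 CPM in OFF and 68.2, 65.0 and 67.0 CPM in ON. Txnl1 had 64.3, 53.2 and 54.6 CPM in OFF and 81.0, 84.3 and 77.8 CPM in ON. Neither had an OFF mouse within the ON range. Sem1, a small lid subunit, rose by 0.37 with 202, 259 and 315 CPM in OFF and 199, 194 and 205 CPM in ON. Its groups overlapped through OFF replicate 1 (adjusted p = 0.0453, edgeR), and the call was lost in 7 of 14 alternative analyses. Pomp, the core maturation protein, was at 0.13 (adjusted p = 0.404, edgeR).

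Of 15 tested regulators of proteasome genes, 4 fell and 3 rose, with a median of 0.05, against 17.5% and 17.3% of all tested rows. Nfe2l1 had 19.4, 18.7 and 16.4 CPM in OFF and 25.9, 31.0 and 31.5 CPM in ON (-0.70 ± 0.13, adjusted p = 0.000952 by edgeR). Of the enzymes that process its product, the protease Ddi2 fell, with 40.1, 36.8 and 42.0 CPM in OFF and 61.9, 65.8 and 63.4 CPM in ON. The glycanase Ngly1 rose, with 10.2, 12.4 and 12.5 CPM in OFF and 7.31, 6.49 and 7.19 CPM in ON. For all 3 genes no OFF mouse lay within the ON range, so the processing enzymes of 1 factor were called in opposite directions. The other rises were those of Stat3 and of Nfya, a gene of NF-Y, each by 0.40 (adjusted p = 0.0168 and 0.0241, edgeR). Both had every OFF mouse above every ON mouse. Nfyb and Nfyc, also of NF-Y, were not called, at -0.31 and -0.01 (adjusted p = 0.0573 and 0.981, edgeR). Myc fell by 1.58, with 7.11, 7.02 and 8.25 CPM in OFF and 20.7, 20.2 and 26.0 CPM in ON (adjusted p = 6.05e-06, edgeR). Mafk, a small MAF protein, had 4.44, 5.12 and 6.82 CPM in OFF and 9.25, 8.31 and 10 CPM in ON (-0.75 ± 0.20, adjusted p = 0.0103 by edgeR). The Mafk call was lost when ON replicate 3 was left out (adjusted p = 0.051, edgeR). The small MAF genes Mafg and Maff were not called, at 0.06 and 0.03 (adjusted p = 0.739 and 0.934, edgeR). Mafg was counted at 99 CPM in OFF and 94.8 CPM in ON. Irf1, which induces immunoproteasome genes, had 33.3, 43.4 and 57.6 CPM in OFF and 34.5, 35.3 and 41.4 CPM in ON. OFF replicate 1 of Irf1 was the lowest of all mice and OFF replicates 2 and 3 the highest (0.27 ± 0.17, adjusted p = 0.235 by edgeR). Nlrc5, an activator of MHC class I genes, did not pass the filter, with 0, 1 and 0 counts in OFF and 0, 4 and 1 in ON.

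Genes for ubiquitin and its delivery included 5 of 18 that fell and 2 that rose (median -0.11), against 17.5% and 17.3% of all tested rows. The shuttle factors Rad23b and Ubqln1, which carry tagged proteins to the proteasome, fell by 0.68 and 0.43, and the activating enzyme Uba6 by 0.39. Rad23b had 90.5, 71.8 and 74.9 CPM in OFF and 136, 113 and 130 CPM in ON, Ubqln1 had 49.0, 42.2 and 48.5 CPM in OFF and 61.6, 64.6 and 61.5 CPM in ON, and Uba6 had 30.0, 29.4 and 25.5 CPM in OFF and 38.6, 34.7 and 37.8 CPM in ON. The autophagy receptor Nbr1 rose by 0.73 and Usp5, which recycles free ubiquitin chains, by 0.43. Nbr1 had 18.5, 22.4 and 20.8 CPM in OFF and 14.5, 10.3 and 12.5 CPM in ON, and Usp5 had 31.7, 33.1 and 35.9 CPM in OFF and 26.4, 23.5 and 24.6 CPM in ON. The groups did not overlap for any of these 5 genes, which were named for the smallest p of the list and so tend to be separated. Over the whole list, 8 of 18 genes had every OFF value below every ON value, 3 had every OFF value above and 7 overlapped. Among all tested rows, 24.5% lay below and 23.8% above. The calls of Uba6 and Usp5 were each lost in 2 of 14 alternative analyses. On the MHC class I side, 1 of 11 genes fell and 2 rose (median -0.03), against the same 17.5% and 17.3% of all tested rows. The peptidase Lap3 fell by 1.30, while Tapbp and B2m rose by 0.50 and 0.51. Lap3 had 17.2, 8.80 and 13.6 CPM in OFF and 31.5, 34.2 and 32.1 CPM in ON (adjusted p = 0.000141, edgeR). Tapbp, which helps load peptides, had 63.9, 67.9 and 82.8 CPM in OFF and 48.0, 54.9 and 48.4 CPM in ON (adjusted p = 0.00518, edgeR). B2m had 291, 324 and 429 CPM in OFF and 253, 246 and 231 CPM in ON (adjusted p = 0.0068, edgeR).

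**Figure D5:**
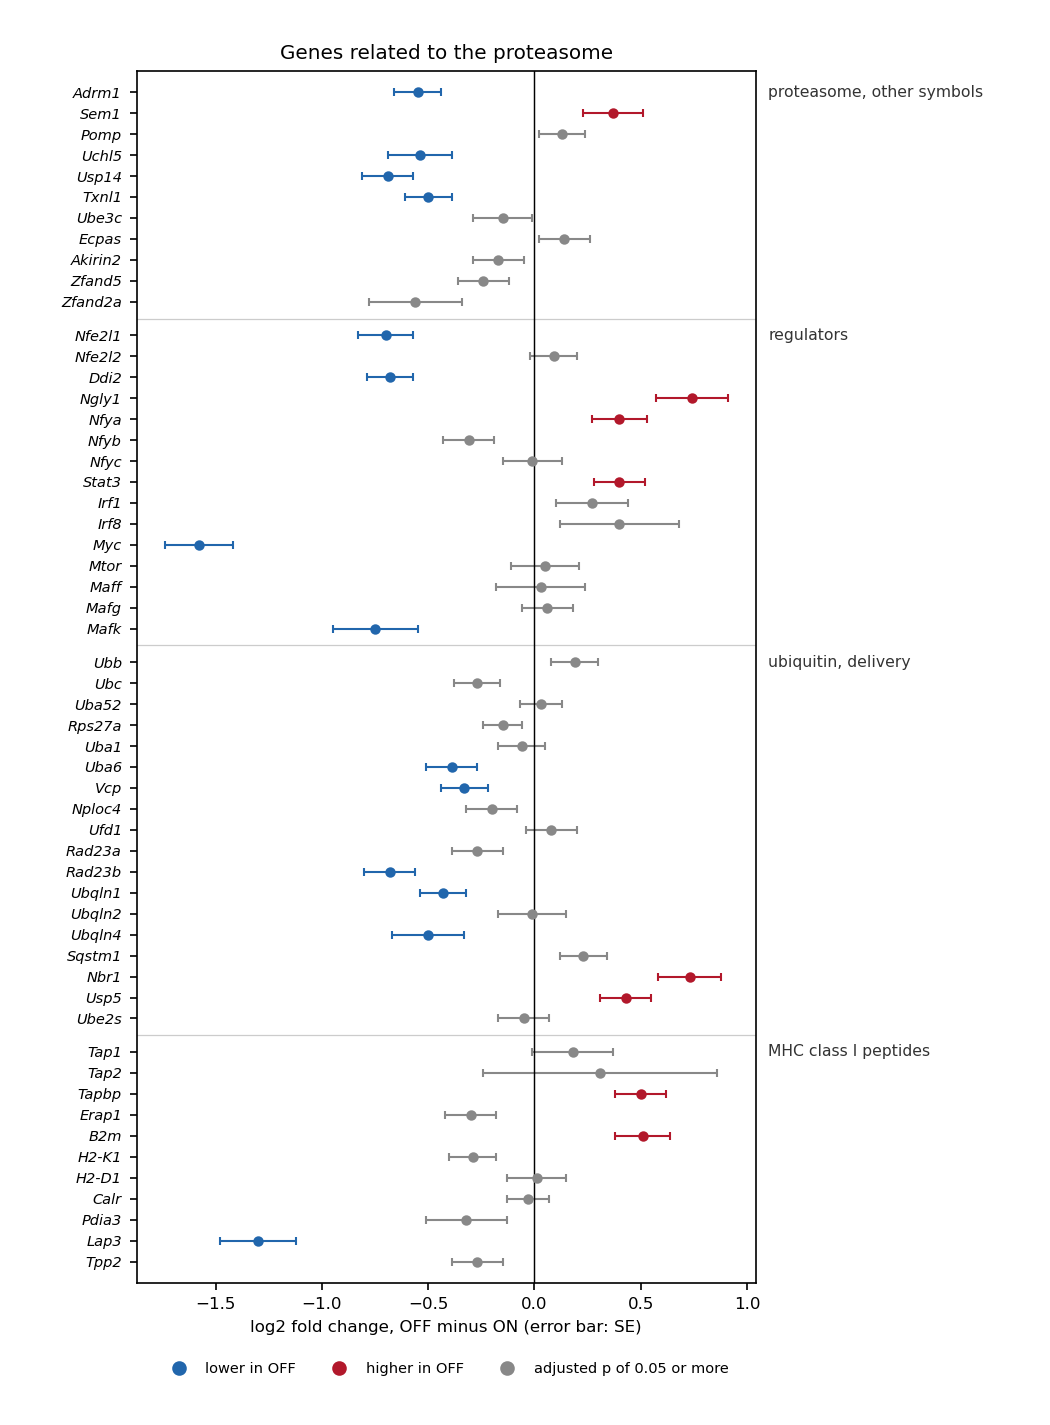
Log2 fold change (OFF minus ON, x axis) with SE of genes related to the proteasome (rows, by list): other proteasome genes, regulators, ubiquitin and delivery genes, and MHC class I peptide genes. Called genes lie on both sides of 0, from Myc at -1.58 to Ngly1 at 0.74, and the list medians were -0.24, 0.05, -0.11 and -0.03.

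RefSeq promoters were found for 41 of the 49 proteasome genes, 44 windows in all, and each motif was searched on both strands. TGANNNNGC was present in 25 of the 44 windows, or 56.8%, against 41.3% of all 32851 promoters of the same length. The paired TTTC motif was present in 5 windows (11.4%, against 3.44% of all), those of Psmb3, Psmd4, Psmd9, Psme1 and Psmg4. CCAAT was present in 14 windows (31.8%, against 37.4%) and CACGTG in 4 (9.09%, against 7.15%), those of Psma4, Psmb10, Psmd9 and Psme3. Of the tested genes with TGANNNNGC, 15 of 22 were called lower, and of those without it 11 of 18 were. For CACGTG these counts were 4 of 4 and 22 of 36, with the calls of Psma4 and Psmd9 each lost in 3 of 14 alternative analyses. For CCAAT they were 8 of 13 and 18 of 27, and for the paired TTTC motif 2 of 5 and 24 of 35. None of these differences was tested. A match is a run of letters only, and binding was not measured.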

How the data were processed

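The labels' protocols give the mice, sort and library kit described above; the gate markers, the annotation and the strand setting are not stated there. The submitters' processing notes list HISAT2 2.0.4, featureCounts and Subread 1.6.3, build mm10, cutadapt 1.9.1, bcl2fastq 2.17.1.14, FastQC 0.11.6, limma 3.42.2 and R 3.6.1. The authors' deposited table of raw counts per gene was analysed; rows with no gene name (0.145% to 0.172% of counts) were left out. The authors' deposited log2 table (12287 genes, named as normalised by voom and limma) served only as an alternative.

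Counts were fitted in R 4.3.3 with edgeR 4.0.16: filterByExpr (minimum count 10, minimum total 15), TMM, robust quasi-likelihood tests of OFF against ON with no covariate, and Benjamini-Hochberg adjustment over 13652 rows at 0.05. Fold changes are given as log2 of OFF over ON, with an SE taken as their size over the root of F. CPM values were computed on TMM-scaled library sizes, and errors of means are SDs over 3 mice. A count of 0 allows up to 3 counts, at most 0.372 CPM, and covers counting error only. Alternatives were DESeq2 1.42.0, limma 3.58.1, other scalings and filters, a replicate block and leaving out each mouse. Replicate libraries differed by more than sampling noise (chi-square per degree of freedom 6.87 to 39.5 within OFF and 2.98 to 9.28 within ON). The script was tested on simulated data.

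Members and lists were chosen with earlier results of these data known. Values per mouse are given for every gene of the catalytic, immunoproteasome, activator, inhibitor and core assembly lists, for the smallest and largest p of each other role, for genes called against the median, for called genes without a Psm symbol, and for up to 5 genes with the smallest p of each further list; Psmb2, Psmd14 and Psma8 were added after their values were seen. Ecpas was matched to the row of its older symbol, and Paaf1 was not analysed here. A regulator and an erythroid marker are not reported here and were left out of their lists. Gene coordinates are from GENCODE M21 (GRCm38) and promoters from RefSeq.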

Additional observations from a re-analysis of the deposited data

How the results depend on the processing

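Over 14 alternative analyses, 19 of the 32 called proteasome genes kept their call in all of them, and 45 of 48 kept the sign of their change. The number called lower was 31 with DESeq2, RLE factors, no TMM factor and no filter, 29 with a filter at 10 CPM, 32 without ribosomal RNA and mitochondrial rows, and 26 with limma on the authors' log2 table. Genes called higher numbered 2 with no filter, with the filter at 10 CPM and with the replicate block, Psmb9 being the gene added. With DESeq2, and in edgeR without OFF replicate 1, the 1 gene called higher was Psmb9. Psmd10 was not called there (adjusted p = 0.0722 by DESeq2 and 0.0747 by edgeR). Leaving out single mice gave 20 to 32 called lower, 0 to 1 called higher and a median log2 fold change of -0.47 to -0.36. Among all tested rows, 1678 to 2740 were called lower in those fits. The role medians ran from -0.62 to -0.43 for the lid, 0.04 to 0.23 for the activators and -0.27 to -0.19 for base assembly. With the Psme2b row left out, an alternative chosen after seeing the data, the activator median was -0.09, and -0.15 to -0.08 without single mice. Genes near 0 changed sign: Psmb8 (0.06 without OFF replicate 1, 0.0016 without ON replicate 2, 0.03 without ON replicate 3; range -0.13 to 0.06), Psmd4 (-0.02 without OFF replicate 1; range -0.02 to 0.13) and Psmb1 (0.01 and 0.02 without OFF replicates 1 and 2; range -0.16 to 0.02). The cause was not tested. No label says whether replicate numbers pair the mice. Deviations of same-numbered libraries correlated at 0.035, -0.076 and -0.05 over 13652 rows. These low values show no shared deviation across rows, but they cannot exclude that the mice were paired. With the replicate block 25 genes were called lower.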

Other observations

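Psmb9 and Psmb8 lie side by side with the peptide transporter genes Tap1 and Tap2 on chromosome 17, within 34181987 to 34216321 of GRCm38 in the order Psmb9, Tap1, Psmb8, Tap2, where Tap1 and Tap2 were picked after their values were seen. Tap2 had 7.89, 32.3 and 38.8 CPM in OFF and 19.2, 18 and 26.5 CPM in ON, so that OFF replicate 1 was the lowest and OFF replicates 2 and 3 the highest of all mice (0.31 ± 0.55 on the log2 scale, estimate and SE; adjusted p = 0.707 by edgeR). Tap1 had 7.55, 12.0 and 11.9 CPM in OFF and 9.25, 9.34 and 9.18 CPM in ON, again with OFF replicate 1 lowest (0.18 ± 0.19, adjusted p = 0.498 by edgeR). Exons of Tap1 and Psmb9, on opposite strands, share 212 bases, which lie 5566 bases away from where Psmb9 ends. Psmb8, between them, did not set OFF replicate 1 apart from ON replicate 1, with 14.1 CPM in OFF and 14.2 CPM in ON.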
